A study of Mus musculus with 8 samples.

Results

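The prostaglandin and leukotriene enzymes turn arachidonate into short-lived lipid mediators and clear those mediators again. The genes were chosen by name as 10 enzymes or enzyme partners of this pathway, and 9 of them were measured in the table of 16650 genes from mouse liver: Ptgs1, Hpgds, Ptgds, Alox5, Alox5ap, Lta4h, Ltc4s, Hpgd and Ephx2. The named cyclooxygenase Ptgs2 was not analysed here. RNA was sequenced from whole livers of 4 control mice, 2afl/fl, which carry floxed Mfsd2a, and 4 mice labelled L2aKO, which carry the same alleles with a Cre transgene under the albumin promoter, so that deletion is aimed at hepatocytes. All 8 mice were 8 weeks old when a steatohepatitis (NASH) diet and fructose water were started, which lasted 2 weeks. Each mouse gave 1 perfused liver, taken at 10 weeks of age and zeitgeber time 4, and the study's animals were male unless stated otherwise. Mfsd2a carries lysophosphatidylcholine, a carrier of polyunsaturated fatty acids, into cells, and the study asked what its loss from hepatocytes does to the liver on this diet.

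Arachidonate, an omega-6 polyunsaturated fatty acid, is cut from membrane phospholipids and oxygenated along separate branches. Cyclooxygenases make prostaglandin H2, which downstream synthases turn into prostaglandins and thromboxane, whereas 5-lipoxygenase, with its partner FLAP, makes leukotriene A4, the source of leukotriene B4 and of the cysteinyl leukotrienes. In liver the prostanoid and leukotriene synthases are known mainly from Kupffer cells and other leukocytes, while hepatocytes are known for taking up and breaking down the products, including the epoxides that cytochrome P450 enzymes make from arachidonate.

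RNA of the targeted gene did not follow the labels. The paper's immunoblot showed no Mfsd2a protein in L2aKO liver, and the RNA values given here do not measure protein. Mfsd2a read 467, 1569, 299.6 and 513 in the 2afl/fl livers and 915, 721, 1422 and 1974 in the livers labelled L2aKO, in reads scaled by library (normalized values). Its log2 fold change, L2aKO over 2afl/fl, was 1.01 (SE 0.59, n = 4 per genotype), with a 95% interval of −0.43 to 2.44 and an exact permutation p of 0.171. Leaving out 2afl/fl replicate 2 gave 1.49, the only 1 of the 8 fits without a liver in which the gene met the call criterion. The genotypes are therefore named by their labels throughout, and a read total over the gene cannot tell a recombined transcript from an intact one. Depth was 27.5M to 30.2M reads per library in 2afl/fl and 28.3M to 37.2M in L2aKO. All 10 hepatocyte markers, such as Alb and Apoa1, were measured, and their summed value was 1620425 to 1921326 in 2afl/fl and 1859314 to 2036077 in L2aKO.

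None of the 9 enzymes was called between the genotypes. A gene was called at an unadjusted p under 0.05 by limma and a fold at least 25% above 1 in either direction; both thresholds are those of the study, which applied them to DESeq2 results. Of all 16650 genes 2.1% were called, 1.32% higher and 0.781% lower in L2aKO, and 0 had an adjusted p under 0.05 by limma although 581 had an unadjusted p under 0.05. Among the 9 enzymes 0 had an unadjusted p under 0.05, and the adjusted p over all genes was 0.9997 for each of them. The fitted log2 fold change was above 0 for 5 enzymes and below 0 for 4, with a median of 0.12 against 0.00034 over all genes. The value with the greatest distance from 0 was that of Hpgd, which inactivates prostaglandins, at 0.42 (SE 0.22), followed by Ltc4s, the synthase of leukotriene C4, at 0.40 (SE 0.29). The narrowest intervals belonged to Lta4h, from −0.17 to 0.13, and to Ephx2, from −0.28 to 0.09, both within that fold in either direction. The widest was that of Ptgds, from −1.20 to 0.65.

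**Figure D1:**
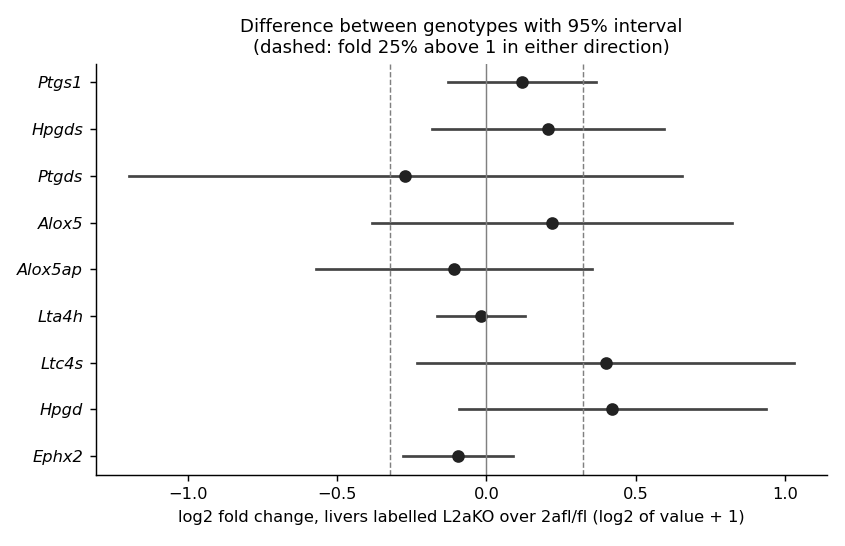
Fitted log2 fold change, livers labelled L2aKO over 2afl/fl, on the scale of log2 of the value plus 1 (x axis), for the 9 enzymes (y axis); points are limma estimates, bars are 95% intervals, n = 4 livers per genotype, and dashed lines mark a fold 25% above 1. Every interval includes 0, those of Lta4h and Ephx2 lie between the dashed lines, and that of Ptgds is the widest, from −1.20 to 0.65.

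The 9 transcripts spanned a wide range of levels. Per kilobase of transcript, averaged over the 8 livers, the order was Ephx2 at 12189, Hpgd at 1505, Lta4h at 462, Ptgs1 at 173, Ptgds at 32.7, Alox5ap at 31.6, Hpgds at 15.6, Ltc4s at 14.4 and Alox5 at 5.45 normalized value per kilobase. The level of the first was 2235 times that of the last. The enzymes that degrade mediators or act on epoxides stood at the top of the order and the 5-lipoxygenase that opens the leukotriene branch at the bottom. Neighbours in this order were separate in every liver except Ptgds and Alox5ap, where Ptgds was above in 4 of 8 livers, and Hpgds and Ltc4s, where Hpgds was above in 6 of 8. The spread over the livers followed another order: the coefficient of variation over all 8 was 5.69% for Lta4h and 8.53% for Ephx2, 13.5 to 19.8% for Ptgs1, Hpgds, Alox5ap, Ltc4s and Alox5, 24.1% for Hpgd and 45.9% for Ptgds.

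**Figure D2:**
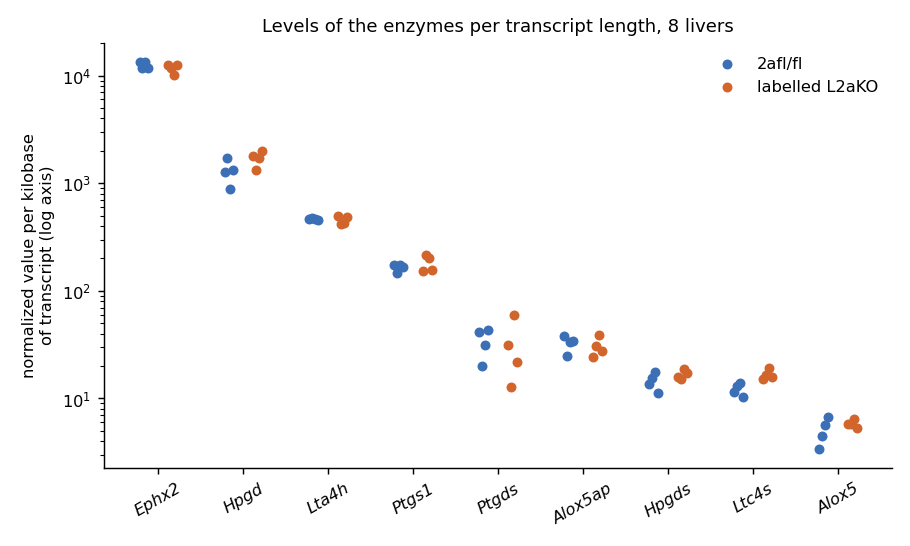
Normalized value per kilobase of transcript on a log axis (y) for the 9 enzymes in descending order (x), 1 point per liver, with 4 points per genotype. The enzymes run from 12189 for Ephx2 to 5.45 for Alox5 as means over 8 livers, and the points of the genotypes intermix for each enzyme except Ltc4s.

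The cyclooxygenase branch was measured through Ptgs1 and the synthases of prostaglandin D2. Ptgs1 (chr2:36230426-36252271, plus strand, mm10), the constitutive cyclooxygenase, had normalized values of 502, 416, 501 and 479 in 2afl/fl and 443, 612, 575 and 447 in L2aKO. A pair of L2aKO livers lay below 3 of the 4 controls and the other pair above all of them, so the groups overlapped. Means were 475 ± 40.3 (SD, n = 4) and 519 ± 87.3 (SD, n = 4), and the log2 fold change was 0.12 (SE 0.11, 95% interval −0.13 to 0.37, exact permutation p = 0.40). Without L2aKO replicate 2, the highest liver, it was 0.03.

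Hpgds (chr6:65117293-65144730, minus strand), the hematopoietic prostaglandin D synthase of mast cells, macrophages and T helper cells, read 47.9, 54.3, 61.3 and 39.3 in 2afl/fl and 55.6, 52.4, 64.7 and 59.5 in L2aKO. The lowest L2aKO liver stood between the controls, and the log2 fold change was 0.21 (SE 0.18, 95% interval −0.18 to 0.59, exact permutation p = 0.257). Ptgds (chr2:25466712-25469749, minus strand), the lipocalin-type enzyme that makes the same product and also binds retinoids, read 37.2, 18.1, 28.4 and 39.3 in 2afl/fl and 28.3, 11.5, 53.3 and 19.5 in L2aKO. Both the lowest and the highest of the 8 livers were L2aKO, from replicates 2 and 3. The log2 fold change of Ptgds was −0.27 (SE 0.42, exact permutation p = 0.60), and it turned to 0.07 without L2aKO replicate 2. Neither synthase met the criterion in any of the 8 fits without a liver.

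**Figure D3:**
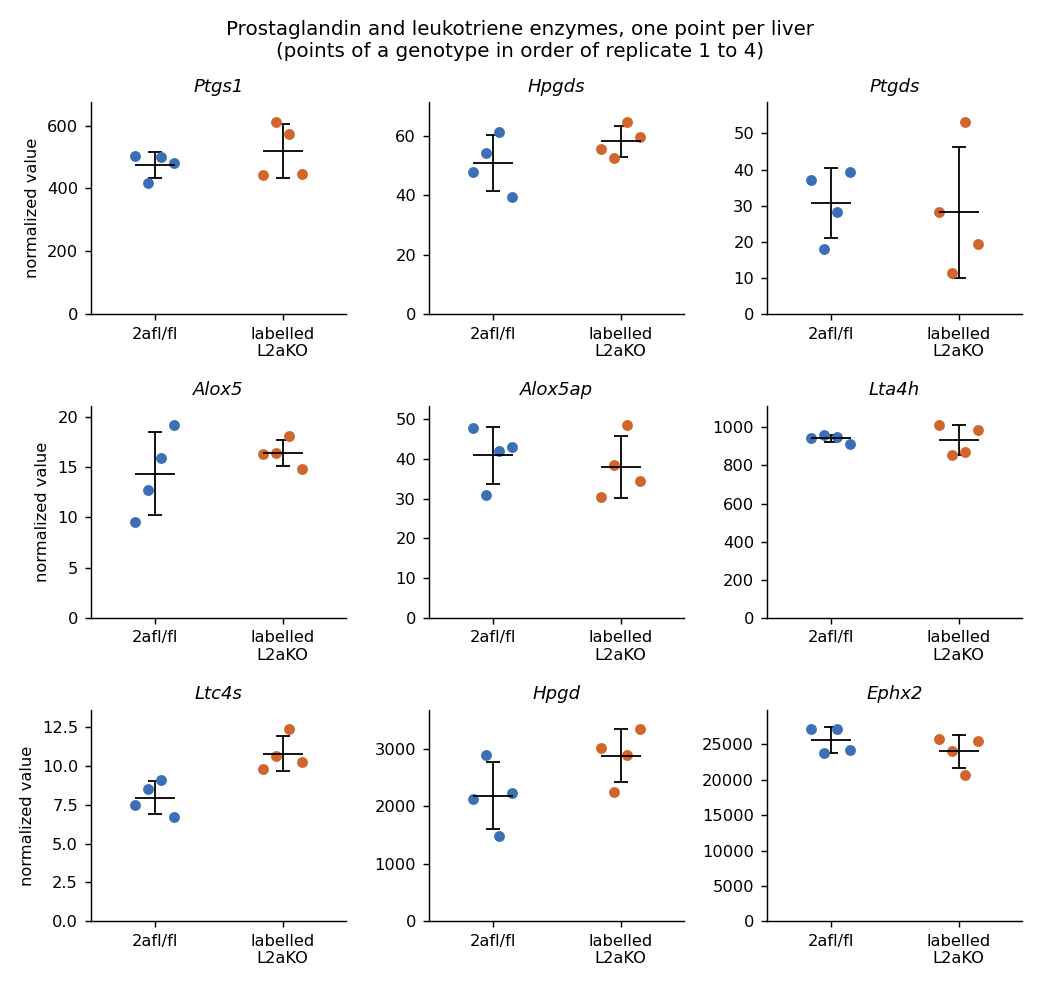
Normalized values (y axis, from 0) of the 9 enzymes in 4 2afl/fl and 4 livers labelled L2aKO (x axis), 1 panel per enzyme and 1 point per liver, with mean and SD as horizontal and vertical bars. Only for Ltc4s do all 4 L2aKO livers, at 9.81 to 12.4, lie above all 4 controls, at 6.71 to 9.08.

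In the leukotriene branch the transcripts of the first steps were low. Alox5 (chr6:116410071-116461178, minus strand), 5-lipoxygenase, read 9.57, 12.8, 15.9 and 19.2 in 2afl/fl and 16.4, 16.4, 18.1 and 14.9 in L2aKO. The L2aKO livers lay within the range of the controls, which ran from the lowest to the highest of all 8. These values stood for 9 to 20 reads per library, and the log2 fold change was 0.22 (SE 0.28, 95% interval −0.38 to 0.82, exact permutation p = 0.40). Alox5ap (chr5:149265004-149288153, plus strand), which encodes FLAP, the membrane protein that presents arachidonate to 5-lipoxygenase, read 47.9, 30.9, 42.0 and 43.2 in 2afl/fl and 30.5, 38.5, 48.5 and 34.4 in L2aKO. The genotypes covered almost the same range, and the log2 fold change was −0.11 (SE 0.21, 95% interval −0.57 to 0.35, exact permutation p = 0.629). Without a liver the value of Alox5 ran from 0.05 (without 2afl/fl replicate 1) to 0.36 (without 2afl/fl replicate 4), and that of Alox5ap from −0.24 (without 2afl/fl replicate 2) to −0.01 (without L2aKO replicate 1).

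Leukotriene A4 is then hydrolysed or conjugated with glutathione. Lta4h (chr10:93453396-93484896, plus strand), the hydrolase that makes leukotriene B4 and also acts as an aminopeptidase, read 942, 961, 949 and 915 in 2afl/fl and 1012, 857, 873 and 988 in L2aKO. The controls lay inside the L2aKO range, and the SD was 19.6 in 2afl/fl and 78.7 in L2aKO. The log2 fold change of Lta4h was −0.02 (SE 0.07, exact permutation p = 0.771), with a sign that turned to 0.02 without L2aKO replicate 2 and 0.01 without L2aKO replicate 3.

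Ltc4s (chr11:50236461-50238532, minus strand), which conjugates leukotriene A4 with glutathione to give leukotriene C4, was the one enzyme whose genotypes did not overlap, against 2.25% of all genes without overlap. It read 7.45, 8.52, 9.08 and 6.71 in 2afl/fl and 9.81, 10.6, 12.4 and 10.2 in L2aKO. The lowest L2aKO liver was above the highest control, by less than the value of 1 read. Means were 7.94 ± 1.06 and 10.8 ± 1.124 (SD, n = 4 each), and the log2 fold change was 0.40 (SE 0.29, 95% interval −0.23 to 1.03). Ltc4s was not called by the limma fit, with an unadjusted p of 0.195, whereas the exact permutation test gave 0.0286, the smallest p that 70 assignments allow, and limma without trend and robust moderation gave an unadjusted p of 0.00706. Behind the values were 30 reads in all 2afl/fl libraries and 46 in all L2aKO libraries, a ratio per depth of 1.37 with an exact 95% interval of 0.845 to 2.24 that covers counting error only.

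The summed markers of recruited macrophages varied with Ltc4s. Values were summed unscaled, and Cd9 weighed most, with means of 453 in 2afl/fl and 516 in L2aKO (log2 fold change 0.18, SE 0.10, not called). The summed value of the 14 markers was 861 to 932 in 2afl/fl and 952 to 1366 in L2aKO (exact permutation p = 0.0286). Of the 14 fold changes 14 were above 0. The list was chosen with earlier results of these data known, and this p was not adjusted over the marker lists, so neither is independent evidence. Over the 8 livers the Pearson correlation of Ltc4s with this sum was 0.84 (Spearman 0.83). The exact permutation p for these were 0.00744 and 0.0154 (adjusted p = 0.207 and 0.381 over 99 relations). Within genotypes the correlation was 0.56, and without the 2 livers farthest from the median sum it was 0.75. Over all genes, 140 (0.841%) were correlated with the sum at least as closely in either direction. That count includes Ltc4s, and the markers of the sum were not left out of it. Ltc4s also had Pearson correlations of 0.66 with the summed hepatocyte markers, 0.64 with those of Kupffer cells and 0.51 with those of endothelium (Spearman 0.67, 0.67 and 0.71), none of which passed adjustment over the 99 relations. The mean log2 sum in L2aKO minus that in 2afl/fl was 0.18 for hepatocyte, 0.11 for endothelial and 0.43 for B cell markers, with an exact permutation p of 0.0571 each. Most of the hepatocyte sum was Alb (log2 fold change 0.23, SE 0.11). The median over the 10 hepatocyte markers was 0.08, with 2 below 0. Of the 14 macrophage markers 5 were called higher, 35.7% against 1.32% of all genes: Lgals3 (0.52), C5ar1 (0.90), Clec4n (0.81), Ms4a6b (0.80) and Cd300lb (0.73), as log2 fold changes. Their exact permutation p was 0.0286 for C5ar1, 0.0571 for Lgals3 and Cd300lb, and 0.0857 for Clec4n and Ms4a6b. Over the 8 fits without a liver C5ar1 was called in 8, Cd300lb in 7, Ms4a6b in 4, and Lgals3 and Clec4n in 3 each. The exact permutation p of the sum was 0.0571 without any 1 of the controls. Fewer assignments were then possible, and the sums of the genotypes stayed separate. Of mast cells, another source of Ltc4s, 0 of 5 measured markers were called, 3 of these had a mean under 3, and the defining receptor chain gene Ms4a2 was not analysed here. In whole liver, a difference in the number of cells of a type and a difference in their RNA per cell cannot be told apart, and the part of macrophages in the Ltc4s values was not tested.

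The clearing enzymes were the most abundant of the set. Hpgd (chr8:56294552-56321046, plus strand), 15-hydroxyprostaglandin dehydrogenase, oxidises prostaglandins to inactive 15-keto forms. It read 2137, 2899, 1478 and 2236 in 2afl/fl and 3022, 2252, 2892 and 3352 in L2aKO. L2aKO replicates 1 and 4 were above every control, L2aKO replicate 3 was just under the highest control, and L2aKO replicate 2, the lowest of its group, was just above the other 3 controls, so the groups overlapped through the highest control. Means were 2187 ± 581 and 2879 ± 461 (SD, n = 4 each). This is a log2 fold change of 0.42 (SE 0.22, 95% interval −0.09 to 0.94) or a fold of 1.34 (95% interval 0.938 to 1.91). Hpgd had an unadjusted p of 0.0935 by limma and an exact permutation p of 0.0857. It met the criterion without 2afl/fl replicate 2, at 0.57, and without L2aKO replicate 2, at 0.54, and the value was lowest without 2afl/fl replicate 3, at 0.25. Hpgd was among genes that the study displayed from these same mice, so its direction here is no independent evidence. The paper describes the genes of its RNA-Seq heatmap as differentially expressed, by DESeq2, whereas limma did not call Hpgd here.

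Hpgd followed Mfsd2a over the livers. The Pearson correlation of their log2 values was 0.93 and the Spearman correlation 0.93, with exact permutation p of 0.000496 and 0.00223 (adjusted p = 0.0491 and 0.221 over 99 relations). Within genotypes the Pearson correlation was 0.89, and without the livers with the lowest and the highest Mfsd2a it was 0.87. Over all genes, 43, or 0.258%, were correlated with Mfsd2a at least as closely in either direction, a count that includes Mfsd2a and Hpgd themselves. The control with the highest Mfsd2a, replicate 2, also had the highest Hpgd among controls, and the control with the lowest Mfsd2a, replicate 3, the lowest. Hpgd also varied with the endothelial receptor gene Stab2 (Pearson 0.84, Spearman 0.69, exact permutation p = 0.0108 and 0.0694, adjusted p = 0.214 and 0.685), a relation that was 0.59 without 2 livers. With the summed markers Hpgd had Pearson correlations of 0.79 for endothelium, 0.69 for hepatocytes, 0.40 for recruited macrophages and −0.22 for Kupffer cells. The Spearman correlations were 0.62, 0.57, 0.52 and −0.24, and none of these sums passed adjustment over the 99 relations. The part of endothelium or of other cells in the Hpgd values was not tested.

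**Figure D4:**
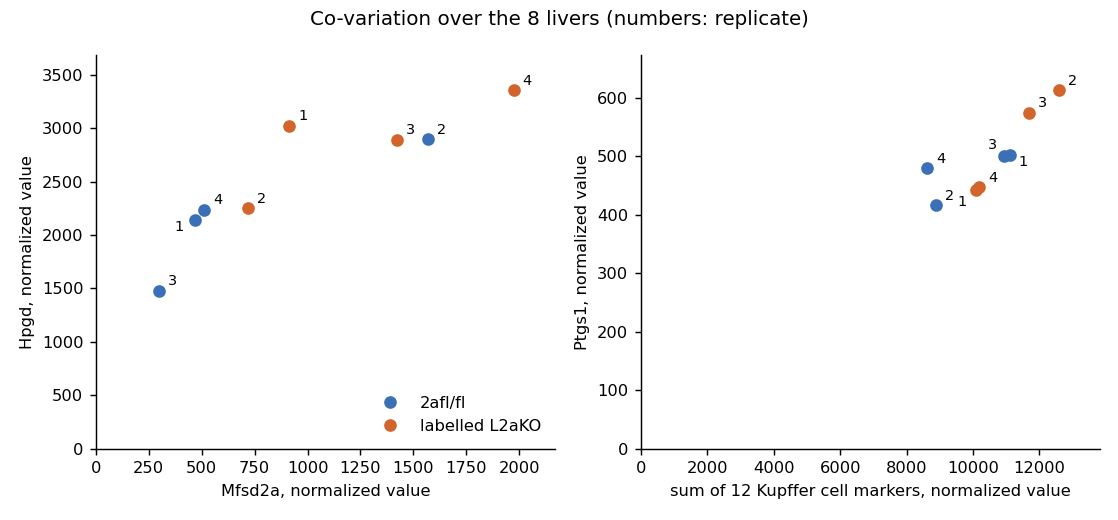
Left, normalized value of Hpgd (y axis) against that of Mfsd2a (x axis), and right, normalized value of Ptgs1 (y axis) against the sum of 12 Kupffer cell markers (x axis), 1 point per liver with its replicate number. The 8 livers give Pearson correlations on the log2 scale of 0.93 on the left and 0.82 on the right.

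Ephx2 (chr14:66084372-66124522, minus strand), soluble epoxide hydrolase, opens the epoxides that cytochrome P450 enzymes make from arachidonate and other fatty acids. It read 27203, 23813, 27150.0 and 24194 in 2afl/fl and 25753, 24056, 20718 and 25546 in L2aKO. L2aKO replicate 3 was the lowest of all 8, the other L2aKO livers lay within the control range, and the log2 fold change of −0.09 (SE 0.08, 95% interval −0.28 to 0.09, exact permutation p = 0.40) was −0.02 without that liver.

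The enzymes did not vary as 1 block over the livers. Of the 36 pairs of enzymes, 16 had a Pearson correlation above 0 on the log2 scale, the median was −0.04, and 2 pairs reached 0.8 in size. Ptgs1 and Lta4h were opposed at −0.89 (Spearman −0.86, exact permutation p = 0.00476 and 0.0107, adjusted p = 0.207 and 0.354), −0.91 within genotypes and −0.91 without 2 livers. Ltc4s and Hpgds, both glutathione-dependent, varied together at 0.84 (Spearman 0.69, exact permutation p = 0.00836 and 0.0694, adjusted p = 0.207 and 0.685), but at 0.52 without the 2 livers farthest from the median of Ltc4s. No pair passed the adjusted threshold, and all pairs share the scaling of the same 8 libraries. With the value of 1 read in each library, which falls with depth, Ptgs1 had a Pearson correlation of −0.60 and Lta4h of 0.67. Their adjusted p by exact permutation was 0.647 and 0.608, and the part of depth in this pair was not tested.

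Ptgs1 varied with the sum of the Kupffer cell markers. The summed value of the 12 markers was 8607 to 11109 in 2afl/fl and 10083 to 12581 in L2aKO (exact permutation p = 0.229). Of the 12 fold changes 12 were above 0, and 0 markers were called. The values were not scaled before summing. Cd5l (means 2461 in 2afl/fl and 2974 in L2aKO) and Clec4f (2406 and 2447) weighed most. L2aKO replicate 2, with the highest sum, had Marco at 377, against 42.6 to 103 in the other livers. Its Vsig4, at 461, was below the L2aKO mean of 517. Relations of Ptgs1 with single markers were not tested. Over the 8 livers Ptgs1 and this sum had a Pearson correlation of 0.82 (Spearman 0.86, exact permutation p = 0.0149 and 0.0107, adjusted p = 0.246 and 0.354). The correlation was 0.80 within genotypes and 0.94 without the lowest and the highest liver for the sum. L2aKO replicates 2 and 3 had both the highest sums and the highest Ptgs1, and the part of Kupffer cells in the Ptgs1 values was not tested.

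Other genes of the pathway were read from 7 lists, covering arachidonate release, further synthases, other lipoxygenases, cysteinyl leukotriene processing, degradation and export, and the receptors. Of 72 listed genes 63 were measured, and 4 of them were called, 6.35% against 2.1% of all genes. The log2 fold change was above 0 for 32 and below 0 for 31, with a median of 0.0010. The called genes were Pla2g10, Cbr3 and Abcc1, which rose by this criterion, and Ptgdr2, which fell. None had an adjusted p under 0.05 by limma, and without L2aKO replicate 2 the count was 7.

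Abcc1, which exports leukotriene C4 from cells, was the best measured of them. It read 90.4, 79.8, 95.3 and 92.1 in 2afl/fl and 122, 134, 122 and 98.5 in L2aKO, and every L2aKO liver was above every control. The log2 fold change of Abcc1 was 0.40 (SE 0.14, unadjusted p = 0.0113 by limma, adjusted p = 0.9997, exact permutation p = 0.0286), and it was called in all 8 fits without a liver.

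The other called genes were low. Pla2g10, a secreted phospholipase A2, was listed at 0 in 3 controls and at 1.06 in 2afl/fl replicate 2, and read 4.36, 2.46, 0.951 and 4.65 in L2aKO. That is 1 read against 13, a ratio per depth of 11.6 with an exact interval of 1.74 to 493 for counting error, and the call (1.66, SE 0.58) was lost without L2aKO replicate 4, at 1.46. Cbr3, a carbonyl reductase related to the prostaglandin reductase Cbr1, read 4.25, 8.52, 2.27 and 5.75 in 2afl/fl and 11.99, 9.83, 24.7 and 7.43 in L2aKO, with overlap between the groups. Its log2 fold change of 1.20 (SE 0.44) fell short of the criterion without 2afl/fl replicate 3, at 0.92, and without L2aKO replicate 3, at 0.88. Ptgdr2, the prostaglandin D2 receptor of eosinophils and type 2 lymphoid cells, read 2.16, 5.52, 3.50 and 0.993 in 2afl/fl and 1.11 in L2aKO replicate 1, and was listed at 0 in the other 3, a log2 fold change of −1.61 (SE 0.59) that was not called without 2afl/fl replicate 2, at −1.34. Exact permutation gave p = 0.0571 for Pla2g10, Cbr3 and Ptgdr2 alike.

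**Figure D5:**
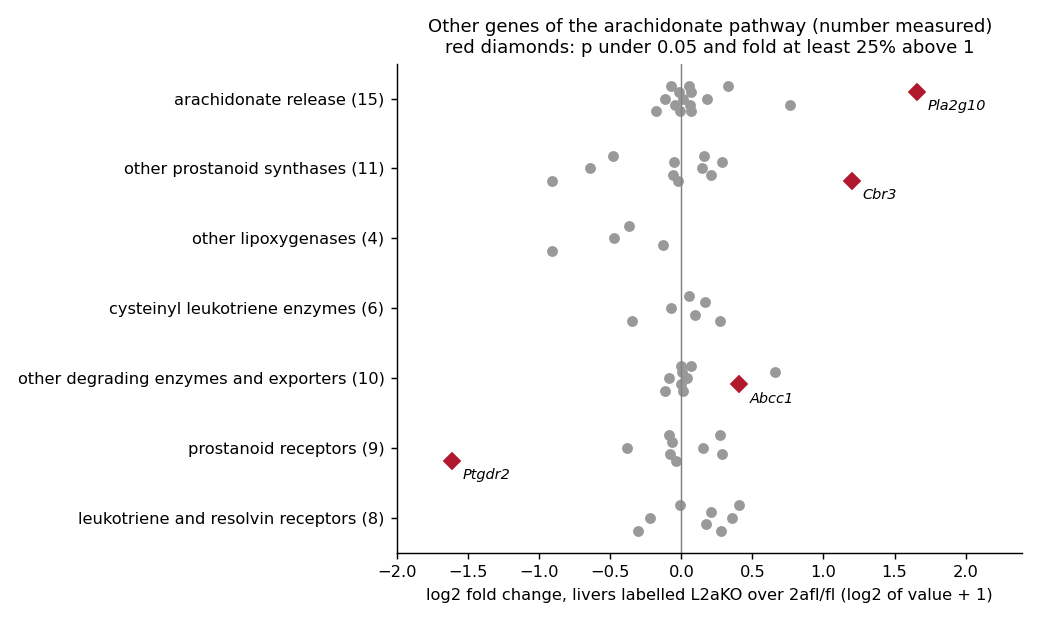
Fitted log2 fold change, livers labelled L2aKO over 2afl/fl (x axis), of the 63 other pathway genes in 7 lists (y axis, with the number measured), 1 point per gene; red diamonds met the call criterion. Pla2g10 (1.66), Cbr3 (1.20) and Abcc1 (0.40) lie to the right and Ptgdr2 (−1.61) to the left.

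Most genes of these lists were not called. In arachidonate release 1 of 15 measured genes was called, and the abundant Mgll (−0.07, SE 0.09), Faah (0.05, SE 0.06) and Daglb (−0.02, SE 0.09), which act on endocannabinoids and diacylglycerol, had log2 fold changes near 0. Among 11 further prostanoid synthases 1 was called, with Ptges3 at −0.02 (SE 0.05), Ptges2 at −0.05 (SE 0.09) and Cbr1 at 0.29 (SE 0.16). The inducible prostaglandin E synthase Ptges, chosen after its values were seen, read 16.0, 36.2, 15.9 and 8.63 in 2afl/fl and 4.36, 12.3, 11.4 and 8.36 in L2aKO. Its log2 fold change was −0.91 (SE 0.43, 95% interval −1.85 to 0.03) with overlapping groups, and it met the criterion without 2afl/fl replicate 4, at −1.21, and without L2aKO replicate 2, at −1.07, but was −0.56 without 2afl/fl replicate 2, the highest liver.

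Of 4 measured lipoxygenases other than Alox5, 0 were called. The 3 of highest mean were Alox8 at −0.37 (SE 0.19), Alox12 at −0.13 (SE 0.27), which turned to 0.10 without 2afl/fl replicate 3, and Alox15, a lipoxygenase of mouse macrophages and eosinophils, at −0.91 (SE 0.61), with Alox15 values of at most 4.26. Of 6 genes of cysteinyl leukotriene processing 0 were called, among them Mgst1 (−0.07, SE 0.11), Mgst3 (0.27, SE 0.35) and Ggt5, which removes glutamate from leukotriene C4 (−0.35, SE 0.25). Of 10 degrading enzymes and exporters 1 was called, and Abcc2 (−0.01, SE 0.08), the canalicular pump of leukotriene C4 in hepatocytes, Ephx1 (−0.08, SE 0.12) and Hsd17b13 (−0.11, SE 0.08) were not. Of 9 prostanoid receptor genes only Ptgdr2 was called, with Ptger1 at −0.08 (SE 0.11), Ptger2 at 0.27 (SE 0.20) and Ptgfrn, a partner protein named for the prostaglandin F2 receptor, at 0.28 (SE 0.16). Of 8 leukotriene and resolvin receptor genes 0 were called, with Fpr1 at 0.28 (SE 0.24), Cmklr1 at 0.17 (SE 0.15) and Gpr18 at 0.21 (SE 0.18).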

How the data were processed

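Liver RNA of 8 mice, 4 2afl/fl and 4 L2aKO by their labels, was analysed from 1 table of 16650 genes, with 0 columns of no sample. Per the submitters' processing notes and the paper, the authors used Partek Flow (version 10), STAR 2.7.8a, mm10 and DESeq2. The deposited values are a normalized signal, read as gene totals that the authors scaled by the DESeq2 size factor of each library. The gene annotation and filter are not given in the sources used here. Of values under 100 reads, 88.6 to 89.2% lay within 0.02 of a whole multiple of the value of 1 read (0.819 to 1.14). Whole reads were therefore not recovered for every gene, and count tests were not used. Reads given for low genes are values divided by the value of 1 read and rounded, and the exact intervals of their ratios are binomial. The design had foreseen limma for this case. Libraries were compared in pairs, and none was a copy of another (chi-square per degree of freedom at least 24.0). The symbols of 4 entries are duplicated.

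Log2 of the value plus 1 was fitted with limma 3.58.1 in R 4.3.3 (lmFit, eBayes with trend and robust, two-sided) over genes with a mean of at least 1, which kept all 16650. Fold changes on this scale understate those of low genes. P was adjusted by Benjamini-Hochberg over all genes. Means and SD are over the 4 livers of a genotype, and SE and 95% intervals are those of the fit. Exact permutation tests ran over 70 assignments (smallest p 0.0286), and those of correlations over 40320 pairings, two-sided and adjusted over the 99 relations computed (63 of enzymes with 7 measures and 36 of enzyme pairs). Levels between genes were divided by the length of the longest principal GENCODE vM21 transcript. The steps were tested on simulated data.

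The enzymes and lists were chosen with earlier results of these data known. Named were all enzymes, Mfsd2a, every called gene of the pathway lists with the 3 of highest mean of each, and called marker genes of the lists beside a result. Alternatives changed the pseudocount, filter, scaling, moderation, library weights, fold limit, adjustment and test, added a replicate block, and left out each liver. The table's columns of the authors' own comparisons were not used.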

Additional observations from a re-analysis of the deposited data

Results flagged for a closer look

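In groups of 4 livers, 6 of 96 tested groups held a liver that stood apart from the other 3 by Dixon's ratio, where chance gives about 1 in 20. None of the 9 enzymes was among them. Mfsd2a was 1569 in 2afl/fl replicate 2, against 299.6 to 513 in the other controls. Pla2g10 was at 1.06 in 2afl/fl replicate 2 and at 0 in the other controls, and Ptgdr2 was at 1.11 in L2aKO replicate 1 and at 0 in the other L2aKO livers. For both genes the only liver above 0 held about 1 read. The ratio was thereby fixed at 1, and the rate of 1 in 20 does not apply to them. Alox12, the platelet-type lipoxygenase, was 51.1 in 2afl/fl replicate 3, against 24.9 to 28.7 in the other controls. Of the summed markers, those of hepatocytes were 1859314 in L2aKO replicate 4, against 2009444 to 2036077 in the other L2aKO livers, and those of mesothelium were 469.8 in L2aKO replicate 1, against 156 to 207.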

How the results depend on the processing

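In the alternatives that give a count and the 8 fits without a liver, the count of enzymes called stayed at 0 except for Ltc4s with eBayes without trend and robust (1) and Hpgd without 2afl/fl replicate 2 or L2aKO replicate 2 (1 each), a range of 0 to 1 without a liver. By the exact permutation test, run per gene, Ltc4s passed (p = 0.0286). With a mean of at least 10, 229 genes were called, 80 of them lower, and 1 other pathway gene. With no fold limit these were 581 genes, 253 lower. With adjusted p under 0.05, 0 genes were called (0 higher, 0 lower, 0 other pathway genes). Without a liver the counts ran from 299 to 427 for all genes, 193 to 262 higher, 84 (without 2afl/fl replicate 3) to 191 (without L2aKO replicate 2) lower and 3 to 7 for other pathway genes, and the Mfsd2a log2 fold change from 0.69 to 1.49. The share of calls that were higher was 62.8%, and 49.7% after quantile normalization. Some uncalled fold changes changed sign. Without a liver Lta4h ran from −0.059 to 0.021, Ptgds from −0.64 to 0.068, Abcc2 from −0.049 to 0.055, Daglb from −0.094 to 0.035, Alox12 from −0.29 to 0.10, Mgst3 from −0.0045 to 0.51, Ptges3 from −0.041 to 0.0064, Mgll from −0.12 to 0.026 and Ptges2 from −0.10 to 0.043. Quantile normalization gave Mgst1 0.029 and Abcc2 0.0049, and total scaling Abcc2 0.0053. The cause of these changes was not tested.

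Replicate numbers did not pair the livers, since same-numbered livers had correlations of −0.21 to 0.13 in their deviations and only 1 of 4 correlated best with its own number. With the number as a replicate block 359 genes were called, 0 of the 9 enzymes and 5 other pathway genes. Precision is limited by 4 livers per genotype and, for Alox5 and Ltc4s, by 7 to 20 reads per library.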

Other observations

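The marker lists of other cells held these calls, where 1.32% of all genes were called higher. Of 8 dendritic cell markers 2 were called higher, the transcription factor Batf3, needed for cross-presenting dendritic cells (6.63 ± 3.97 in 2afl/fl and 21.6 ± 3.03 in L2aKO, log2 fold change 1.81, SE 0.47), and the migration receptor Ccr7 (1.15, SE 0.51). Batf3 was called in all 8 fits without a liver and Ccr7 in 3, and the adjusted p by limma was 0.9997 for both. Of 9 T and NK cell markers the activation antigen Cd69 was called higher (2.11 ± 1.74 and 6.76 ± 0.812, SD, n = 4 each), of 6 B cell markers, all 6 with a fold change above 0, Ms4a1 (0.88, SE 0.38), of 12 stellate cell markers the collagen chain Col1a1 (347 ± 56.2 and 448 ± 80.0) and of 7 bile duct markers the protease St14 (0.67, SE 0.26). The shares called were 25% for dendritic cell, 16.7% for B cell, 14.3% for bile duct, 11.1% for T and NK cell and 8.33% for stellate cell markers. Fold changes were below 0 for 2 dendritic cell, 4 T and NK cell, 2 bile duct and 5 stellate cell markers. In that order, the log2 differences of the sums were 0.02, 0.13, −0.03 and 0.03 (exact permutation p = 0.629, 0.514, 0.857 and 0.743). The dendritic cell markers Clec9a and Xcr1 were at 0.01 (SE 0.11) and 0.05 (SE 0.21). Over the 8 fits without a liver Cd69 was called in 8, St14 in 7, Col1a1 in 4 and Ms4a1 in 2. Of the 8 measured neutrophil markers, 6 platelet markers, 11 endothelial markers, 7 mesothelial markers and 5 mast cell markers 0 were called. Neutrophils, mast cells and platelets carry Alox5, Ltc4s or Ptgs1, and 4 of the neutrophil markers had a mean under 3.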
